A study of Homo sapiens with 20 samples.

Results

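The subject is the set of MYC summits of PC-3 cells with and without the kinase SLK. A summit is the position of highest signal in a called peak of a chromatin immunoprecipitation (ChIP-seq) library. Members were the summits in the 6 deposited lists of anti-MYC libraries, 3 from wild-type cells (WT) and 3 from SLK knockout cells (SLK-KO, named PSD10 in the labels), and they numbered 4459 of the 87308 summits in the 12 lists analysed here. PC-3 is an established prostate cancer epithelial cell line. Both genotypes were cultured to the same confluence and cross-linked with formaldehyde in 1 protocol, with no other agent named. The labels do not say whether the knockout line is 1 clone or how it was made. They also do not say that replicates came from separate cultures, so p-values measure only the spread between these libraries, which may be technical. The study's title names SLK as a co-regulator of c-Myc, and the comparison addresses where MYC is found when SLK is absent.

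MYC is a transcription factor that binds DNA as a dimer with MAX, preferring the E-box CACGTG, and it is found mostly at promoters that are already open. Genes for ribosomes, nucleotide synthesis and translation are its best known targets, and it is often raised in prostate cancer. SLK is a serine/threonine kinase of the STE20 family, known for roles in the cytoskeleton and cell migration.

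Each summit was assigned to every protein-coding gene with an annotated transcription start site (TSS) within 1 kb, and such a gene is called a MYC gene of that library. The lists differed in length. WT replicates 1 to 3 held 365, 201 and 267 summits and SLK-KO replicates 1 to 3 held 1218, 1420 and 988. Read depth is unknown. Counts of genes are therefore given with all summits and with each list reduced to its 201 best-scored summits, 201 being the length of the shortest. The score is column 5 of the lists, the authors' −log10 q of the peak, and it ranks summits within a list only. The last of the 201 summits had a score of 6.29, 1.41 and 4.55 in WT and of 11.96, 12.53 and 10.52 in SLK-KO.

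The sequences below show what lies at or near the summits that the results turn on. They are from the plus strand of GRCh38, and capitals mark the E-box closest to the median summit or, where none lies within 100 bp of it, the closest variant (CACGCG or CATGTG on either strand). Windows with capitals are centred on the marked E-box or variant, and several hold none of the gene's summits. The distance from the median summit was 97 bp at BRWD1, 89 bp at SRSF6 and 81 bp at LONP1, the largest of those shown. Windows with no capitals hold the median summit at their middle and have none of these within 100 bp. Those of the first set lie at genes with a summit in all 6 libraries.
NME1, chr17:51153583-51153608: tgctgcgaacCACGTGggtcccgggc
SNX5 and MGME1, chr20:17968676-17968701: gcaaagacgcCACGTGgggcctaccc
CCDC47 and DDX42, chr17:63773839-63773864: tgtgtgggacCACGTGgccagaggca
G6PC3, chr17:44070672-44070697: caacagtggcCACGTGgggccctgag
SRSF6, chr20:43458273-43458334: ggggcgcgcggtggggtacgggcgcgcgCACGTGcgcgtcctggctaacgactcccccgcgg
BRWD1, chr21:39313825-39313886: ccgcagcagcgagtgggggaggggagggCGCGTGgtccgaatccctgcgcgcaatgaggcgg
The second set lies at genes with a summit in all 3 SLK-KO and no WT library.
KMT2D, chr12:49060882-49060943: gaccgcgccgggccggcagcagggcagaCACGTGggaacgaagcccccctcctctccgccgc
NCBP2 and NCBP2AS2, chr3:196942514-196942539: agcggaccacaatgcggcgactcccg
ADGRE5, chr19:14381253-14381278: ttactgagtgCACGTGtgtgtgtgtg
CYTH1, chr17:78717062-78717123: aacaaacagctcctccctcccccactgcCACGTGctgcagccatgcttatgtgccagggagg
DKC1, chrX:154762938-154762963: gggcggcacgCACGCGgtgcagggta
NACC1 and TRMT1, chr19:13116739-13116764: gtgggcgaatCACATGatagtggttg
LONP1 and CATSPERD, chr19:5720343-5720368: cttttccggtCACGTGgaaggctgtg
RPL29, chr3:51995771-51995796: tcggtcaccagtcctctccgcagccc
The third set lies at genes that were among the 201 best summits in all 3 WT libraries and in no SLK-KO library.
C2CD2, chr21:41954128-41954189: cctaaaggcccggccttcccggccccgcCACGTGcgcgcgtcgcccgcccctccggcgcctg
SLC12A9, chr7:100852568-100852629: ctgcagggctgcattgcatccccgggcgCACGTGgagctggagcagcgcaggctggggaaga
GNL3 and PBRM1, chr3:52686028-52686053: cttcagttcaCACGTGgcgccagcgg
POLR1B, chr2:112542482-112542507: tgcaggtggcCACATGgatcctggca
PRMT3, chr11:20387736-20387761: gcaccacagcCATGTGctcgttagcg
The last set lies at genes that were among the 201 best summits in all 3 SLK-KO libraries and in no WT library, beside those of the second set.
LUC7L3, chr17:50719569-50719594: catgctgggaaggcgtccgcgcggcg
RCOR3, chr1:211259118-211259179: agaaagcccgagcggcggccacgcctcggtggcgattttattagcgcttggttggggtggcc

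CACGTG stands in 5 of the 6 windows of the first set, 4 of the 8 of the second, 3 of the 5 of the third and 0 of the 2 of the last. The BRWD1 window holds CGCGTG, the other strand of CACGCG, and the DKC1 window CACGCG itself. Those of NACC1 with TRMT1 and of POLR1B hold CACATG, the other strand of the CATGTG at PRMT3. The windows at EIF3E, MFSD3 and MYC are not shown. The median summits of SRSF6, CYTH1, SLC12A9 and RCOR3 lay in introns and those of KMT2D and C2CD2 outside coding genes. Those of DKC1, POLR1B and PRMT3 lay in coding sequence, and the others shown, BRWD1 among them, in untranslated sequence. The 26-base windows all hold some annotated untranslated sequence. For scale, CACGTG lies within 100 bp of the annotated start of 5.88% of the 20033 protein-coding genes, CACGCG of 10.0% and CATGTG of 6.09%, each searched on both strands. A match is a description of the sequence and does not show that MYC contacts it.

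MYC genes numbered 366, 208 and 279 in the WT libraries and 1099, 1278 and 933 in the SLK-KO libraries. Every SLK-KO library held more MYC genes than every WT library. WT averaged 284 ± 79.1 genes and SLK-KO 1103 ± 172.5 (SD, n = 3 each), a ratio of geometric means of 3.95. An exact two-sided permutation test gave p = 0.1, the smallest that 3 against 3 libraries allow, and 0.25 after Benjamini-Hochberg adjustment over the 10 tests made. With 201 summits per list the order turned, to 213, 208 and 216 genes in WT and 197, 203 and 205 in SLK-KO. The ranges again did not overlap (212 ± 4.04 against 202 ± 4.16, SD, n = 3 each), the log2 difference was -0.07, and the exact permutation p was 0.1 (adjusted 0.25). Promoter summits per 201 numbered 168, 167 and 170 in WT and 158, 164 and 161 in SLK-KO. With the 100 best summits the difference in genes was 0.0317 on the log2 scale, in the other direction.

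**Figure D1:**
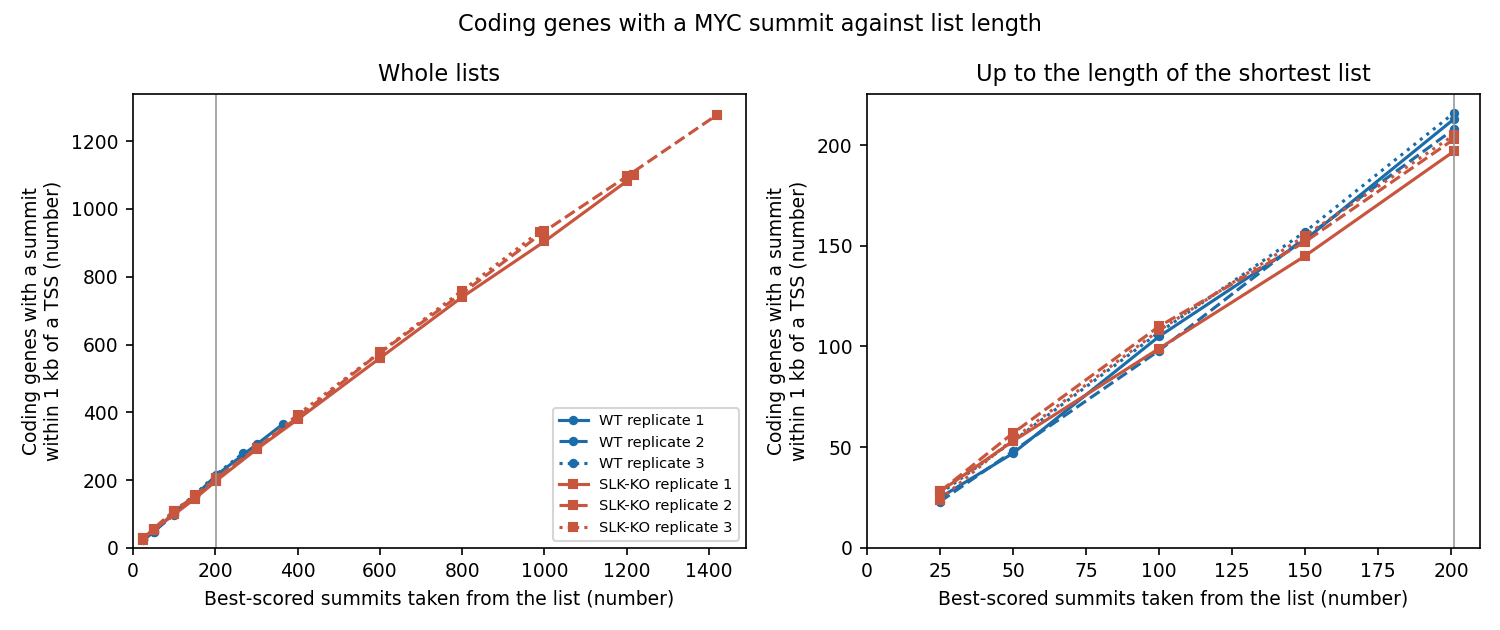
Number of MYC genes (vertical axis) against the number of best-scored summits taken from the list (horizontal axis), for 3 WT (blue) and 3 SLK-KO (red) libraries. The grey line marks 201 summits, where the WT libraries hold 208 to 216 genes and the SLK-KO libraries 197 to 205, and the WT lines end by 365 summits while the SLK-KO lines go on to at most 1420.

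With all summits, 230 genes were MYC genes in at least 2 WT libraries (1.15% of the 20033 protein-coding genes) and 953 in at least 2 SLK-KO libraries (4.76%). The 2 sets had 221 genes in common (1.1%). All but 1 of the 230 WT genes, 229 or 99.6%, appeared somewhere in the SLK-KO lists. In the other direction 412 of the 953 SLK-KO genes, 43.2%, appeared in a WT list. There were 175 genes found in every SLK-KO library and in no WT library, called knockout-only below (0.874%), and 0 of the opposite kind (0%). PSD4, on chromosome 2, was the single gene in 2 WT and 0 SLK-KO libraries, and it is named here after its values were seen. Where a genotype is read from 2 libraries, both must hold the gene. The WT count was then 129 without WT replicate 1 and 137 without WT replicate 3, and the SLK-KO count 618 without SLK-KO replicate 1 and 568 without SLK-KO replicate 2. The genes of both fell to 127 and 134 without those WT libraries, and those of SLK-KO alone numbered 279 without SLK-KO replicate 1 and 358 without SLK-KO replicate 3. All 6 libraries held 99 genes, and 1935 genes were in at least 1 library.

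With 201 summits per list these counts were close between the genotypes. At least 2 WT libraries held 181 genes (0.904%), at least 2 SLK-KO libraries 178 (0.889%), and 131 were common to them (0.654%). Some SLK-KO list held 86.7% of the 181 WT genes, and some WT list held 87.1% of the 178 SLK-KO genes. Knockout-only genes numbered 7 (0.0349%) and wild-type-only genes, in every WT and no SLK-KO library, 6 (0.03%). Leaving out a library raised the first of these to as many as 17 (without SLK-KO replicate 2) and the second to as many as 15 (without WT replicate 1). Pairs of WT libraries shared 52.8% to 59.2% of their MYC genes, pairs of SLK-KO libraries 55.2% to 66.5%, and pairs across the genotypes 50.5% to 63.4%, so the ranges overlapped.

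The genes with the best median rank in all 6 lists had various functions. At NME1, a nucleoside diphosphate kinase gene and a known MYC target (ENSG00000239672.8, chromosome 17, 51153559 to 51162428), the best summit ranked 3, 3 and 8 in WT and 3, 2 and 3 in SLK-KO. Its 6 summits lay within 31 bp of each other, at 51153549 to 51153580. Each was between 10 bp upstream and 4 bp downstream of the nearest of several annotated TSSs. The scores were 63.4, 35.0 and 29.3 in WT and 73.7, 106.4 and 91.2 in SLK-KO. The readthrough gene NME1-NME2 starts close by, at 51153590, and shares these summits. NME2, its neighbour of the same family, had a summit of its own in all 6 libraries, at ranks 13, 35 and 29 in WT and 18, 46 and 44 in SLK-KO.

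BRWD1, which encodes a bromodomain protein, followed at ranks 4, 19 and 3 in WT and 2, 3 and 5 in SLK-KO. One summit served MGME1, a mitochondrial DNA exonuclease, and SNX5, a sorting nexin on the opposite strand, at ranks 14, 5 and 12 in WT and 4, 7 and 6 in SLK-KO. Another served CCDC47, a protein of the endoplasmic reticulum, and the RNA helicase gene DDX42, at ranks 7, 4 and 4 in WT and 7, 12 and 50 in SLK-KO. The translation factor gene EIF3E ranked 10, 7 and 7 in WT and 14, 15 and 9 in SLK-KO. MFSD3, a transporter family gene, ranked 5, 6 and 6 in WT and 12, 10 and 8 in SLK-KO. The splicing factor gene SRSF6, whose summit is shared with the overlapping gene ENSG00000288000, ranked 21, 11 and 30 in WT and 9, 4 and 11 in SLK-KO. G6PC3, a glucose-6-phosphatase gene, ranked 6, 45 and 9 in WT and 6, 16 and 18 in SLK-KO. All of these stood among the 50 best summits of every list.

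Summit positions often lay close together between libraries of both genotypes. Over the 99 genes in all 6 libraries the median span of the best summits was 54 bp within WT, 49 bp within SLK-KO and 93 bp over all 6. At 54 of the 99 genes (54.5%) the 6 summits lay within 100 bp. G6PC3 was among the tightest of the named genes, with 22 bp over all 6 libraries.

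**Figure D2:**
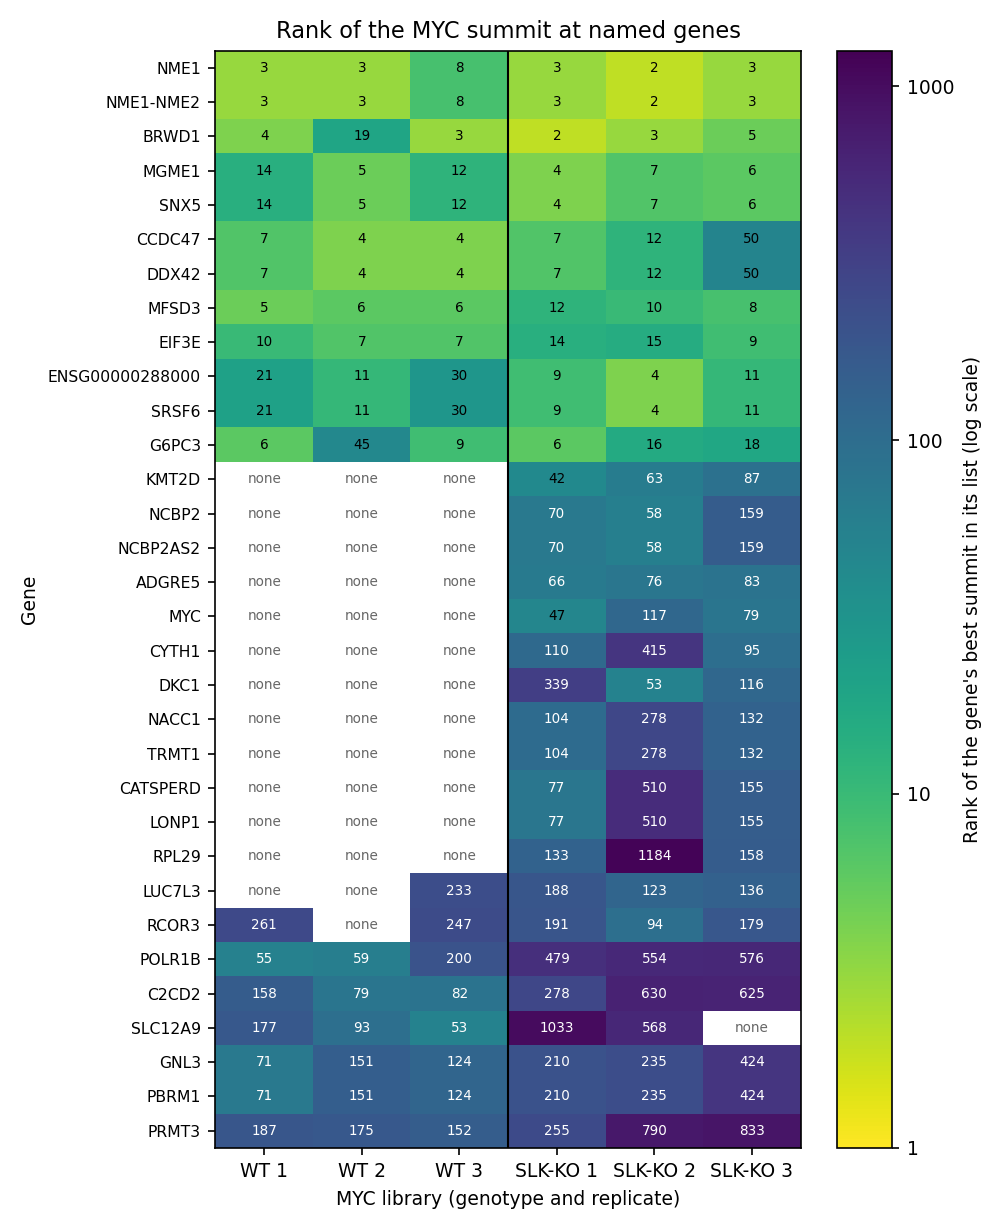
Rank of the best MYC summit at each named gene (rows) in each of the 6 libraries (columns, WT to the left of the line), coloured on a log scale and printed in each cell, where rank 1 is the best score of a list and "none" marks a gene that was not a MYC gene there. The upper genes have ranks of 50 or better in all 6 libraries, and the middle genes have none in WT. Ranks from lists of different length show no change by themselves.

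Of the 175 knockout-only genes, most had a median rank in the SLK-KO lists beyond the length of the longest WT list. Their median rank over the SLK-KO lists was 514, against 196 for the 295 genes of every SLK-KO list that a WT list also held. For 50 of the 175 (28.6%) the median rank was within 365, the length of the longest WT list, and for 14 it was within 201.

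KMT2D, a histone H3 lysine 4 methyltransferase gene (ENSG00000167548.18, chromosome 12, 49018975 to 49060794), led them. Its summits ranked 42, 63 and 87 in SLK-KO with scores of 24.0, 21.9 and 15.8, at 49060862 to 49060895, between 68 and 101 bp upstream of a TSS. No WT list held a summit there. NCBP2, the small subunit of the nuclear cap-binding complex, shared a summit with NCBP2AS2 on the opposite strand, at ranks 70, 58 and 159 in SLK-KO, and none of the searched E-box forms lay within 100 bp. ADGRE5, an adhesion G protein-coupled receptor gene, ranked 66, 76 and 83.

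The MYC gene itself was among the 14 (ENSG00000136997.22, chromosome 8, 127735434 to 127742951). Its SLK-KO summits ranked 47, 117 and 79 with scores of 23.4, 16.7 and 16.4, and 0 of 3 WT lists held one. They lay at 127738355 to 127738503 inside the gene body, 660, -570 and 610 bp from annotated TSSs of internal transcripts (negative is upstream), and beyond 1 kb of the first start of the gene. With a window of 500 bp, or with 1 TSS per gene, MYC was not a MYC gene of any library. The gene body held 3, 2 and 2 MYC summits in the SLK-KO libraries and 0, 0 and 0 in WT, the further ones at ranks 291 and 915, 705, and 351. All 6 POL2 libraries had a summit at MYC.

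CYTH1, a guanine nucleotide exchange factor gene for ARF GTPases, ranked 110, 415 and 95 in SLK-KO. DKC1, which encodes the pseudouridine synthase dyskerin, ranked 339, 53 and 116, with summits spread over 572 bp. A shared summit of NACC1, a transcriptional repressor, and TRMT1, a tRNA methyltransferase, ranked 104, 278 and 132. That of LONP1, a mitochondrial protease, and CATSPERD ranked 77, 510 and 155. RPL29, a ribosomal protein gene, ranked 133, 1184 and 158, so its call in SLK-KO replicate 2 rested on a summit near the end of the list, with a score of 3.34. The ranks of these genes spanned more places between the SLK-KO libraries than those of KMT2D, NCBP2 and ADGRE5, whose median ranks were better.

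With 201 summits per list, 5 of these genes were still knockout-only: KMT2D, NCBP2, NCBP2AS2, ADGRE5 and MYC. LUC7L3, a splicing-related gene, and RCOR3, of the REST corepressor family, made up the 7. LUC7L3 had a WT summit at rank 233 in replicate 3 and none in WT replicates 1 and 2. RCOR3 had WT summits at ranks 261 and 247 in replicates 1 and 3 and none in WT replicate 2. These ranks lay past the 201 best, so neither gene was knockout-only with all summits.

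The 6 wild-type-only genes at equal length all had summits further down the SLK-KO lists. POLR1B, the second subunit of RNA polymerase I, ranked 55, 59 and 200 in WT and 479, 554 and 576 in SLK-KO. C2CD2 ranked 158, 79 and 82 in WT and 278, 630 and 625 in SLK-KO. The summit shared by GNL3, nucleostemin of the nucleolus, and PBRM1, a subunit of the PBAF chromatin remodeler, ranked 71, 151 and 124 in WT and 210, 235 and 424 in SLK-KO. PRMT3, a protein arginine methyltransferase that acts on a ribosomal protein, ranked 187, 175 and 152 in WT and 255, 790 and 833 in SLK-KO. SLC12A9, of the cation-chloride cotransporter family, ranked 177, 93 and 53 in WT and 1033 and 568 in SLK-KO, with none in replicate 3. POLR1B lies on chromosome 2, which held 5.09% to 7.04% of the MYC genes in WT and 1.97% to 3.55% in SLK-KO at equal length. The part of this in the POLR1B result was not tested.

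SLK (ENSG00000065613.15, chromosome 10, 103967140 to 104029233) had no MYC summit in any of the 6 lists. Near its TSSs, 2 of the WT and all 3 of the SLK-KO POL2 libraries had a summit, and lists of summits give no measure of the SLK protein.

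Functions were described with 23 gene lists, by the share of each list's members that were MYC genes in a library, with no test of a list. Beside them stand the same shares of all protein-coding genes, which averaged 1.42% ± 0.395 for WT against 5.51% ± 0.861 for SLK-KO (SD, n = 3 each) with all summits and 1.06% and 1.01% at equal length. Of the 9943 genes with a POL2 summit in at least 2 of the 6 POL2 libraries, 2.80% and 10.8% were MYC genes with all summits and 2.099% and 1.99% at equal length. With all summits, 17 of the 23 lists had SLK-KO shares wholly above the WT shares and 0 the reverse. At equal length 2 lists had shares apart, 1 in each direction.

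**Figure D3:**
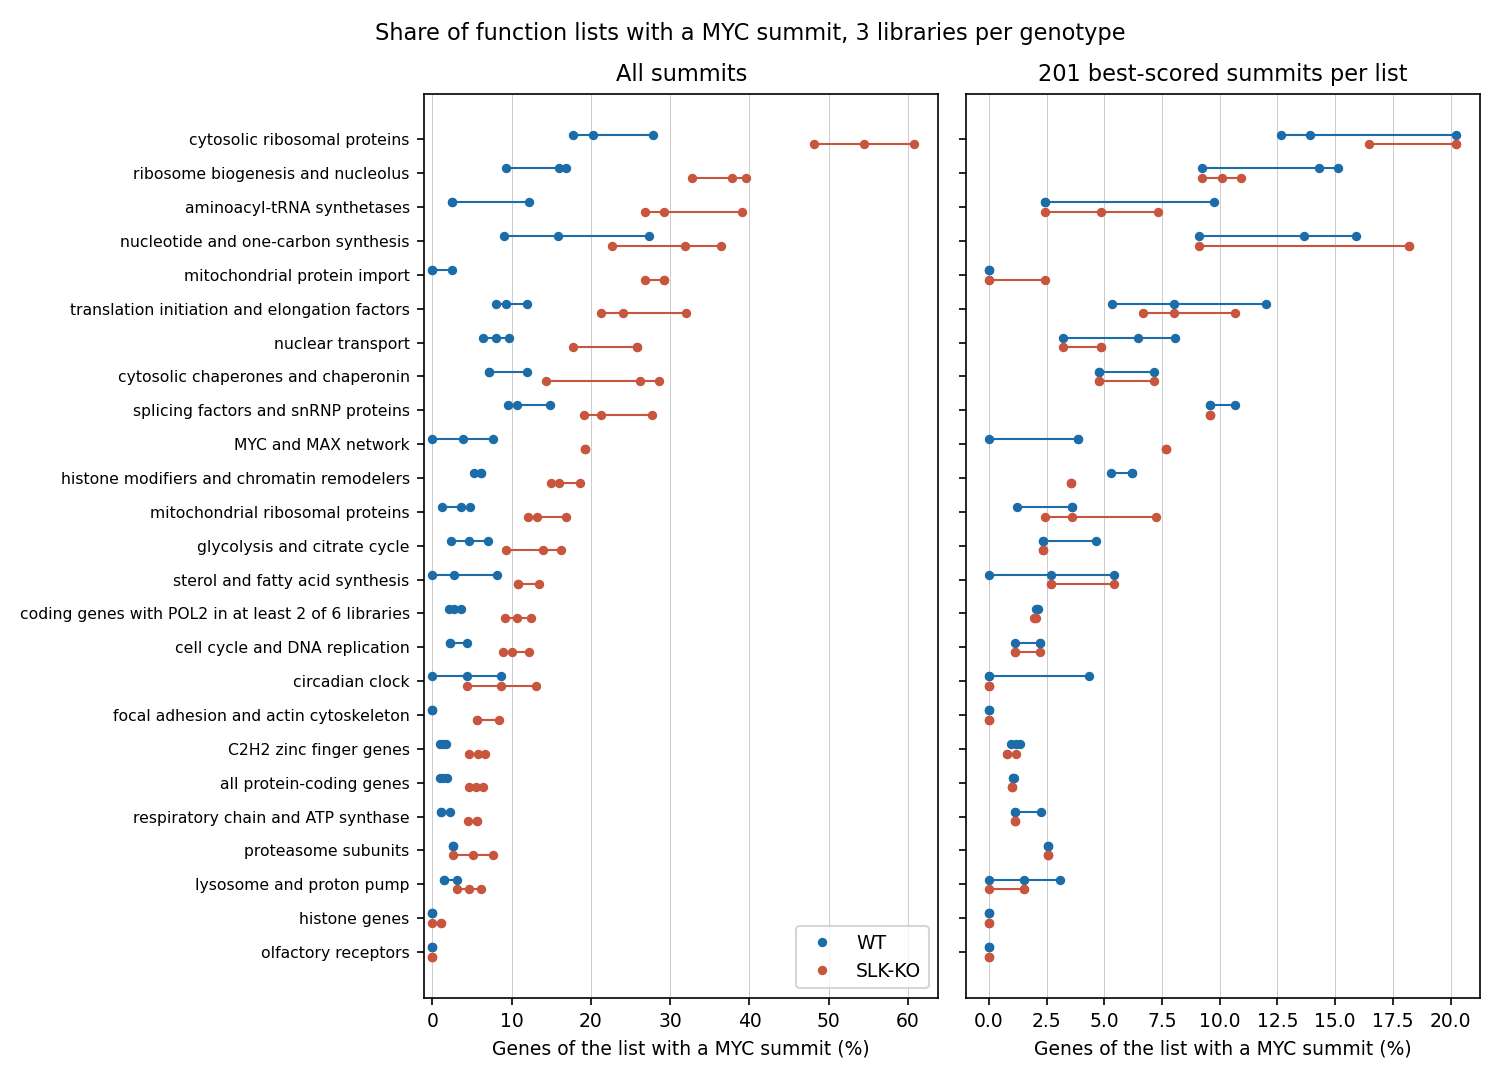
Share of the genes in each function list that were MYC genes (horizontal axis, percent), with 1 point per library and a line from the lowest to the highest of the 3 libraries, for WT (blue) and SLK-KO (red). In the left panel, with all summits, cytosolic ribosomal proteins reach 38 to 48 of 79 genes in SLK-KO and 14 to 22 in WT. In the right panel, with 201 summits per list, the genotypes overlap in all lists shown but the MYC and MAX network, the histone modifiers and the background of all coding and all POL2 genes.

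Cytosolic ribosomal protein genes were the list with the highest share in both genotypes. Of its 79 genes, 22, 16 and 14 were MYC genes in WT and 43, 48 and 38 in SLK-KO (means of 21.9% ± 5.27 against 54.4% ± 6.33, SD, n = 3 each). Every SLK-KO library held more of them than every WT library. Counting 11, 16 and 10 genes in WT and 13, 16 and 16 in SLK-KO, the lists of equal length overlapped, and both shares were far above the 1.06% and 1.01% of all coding genes. RPS24, RPSA, RPL5, RPL14 and RPL8 were among those with a summit in all 6 libraries. RPS24 ranked 16, 17 and 13 in WT and 8, 31 and 10 in SLK-KO, and RPSA 25, 29 and 19 against 15, 13 and 26. RPL13, RPL18, RPL29, RPL37, RPL6, RPLP1 and RPS19 were knockout-only.

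The products of ribosome biogenesis and nucleolar genes process ribosomal RNA and assemble subunits. Of 119 genes, 19, 11 and 20 were MYC genes in WT and 45, 47 and 39 in SLK-KO, and at equal length 18, 11 and 17 against 13, 12 and 11. NPM1, the nucleolar protein nucleophosmin, ranked 15, 58 and 35 in WT and 10, 8 and 7 in SLK-KO, with 23 bp between its outermost summits. PPAN, a factor of large subunit maturation, ranked 66, 24 and 11 in WT and 16, 9 and 13 in SLK-KO. The RNA helicase genes DDX21 and DDX54 also had a summit in all 6 libraries, as did NCL, RRP1B, RRS1, GNL3 and POLR1B. The knockout-only genes included 7 of this list, DCAF13, DKC1, IMP3, NHP2, NOB1, NOP56 and UTP4. NHP2 is a partner of dyskerin in small nucleolar RNA particles, and NOP56 a core part of those that guide methylation.

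Translation factor genes, which load mRNA onto ribosomes and extend the peptide, counted 7, 6 and 9 of 75 in WT and 18, 24 and 16 in SLK-KO. At equal length they counted 4, 6 and 9 against 6, 8 and 5. EIF3B, a scaffold of initiation factor 3, ranked 8, 30 and 18 in WT and 20, 14 and 30 in SLK-KO. PABPC1, the cytoplasmic poly(A)-binding protein, ranked 18, 88 and 26 against 134, 27 and 48. EEF1AKMT3, in the list by its name and a methyltransferase of an elongation factor, ranked 92, 13 and 14 against 21, 33 and 76. EEF1A1, EIF4B, EIF4H, EEF1E1 and a readthrough of EEF1E1 were knockout-only. EEF1A1, like NPM1 and many ribosomal protein genes, has near-identical copies elsewhere in the genome, so reads at transcribed sequence could be placed at either.

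Aminoacyl-tRNA synthetase genes, whose products charge tRNA, counted 5, 1 and 1 of 41 in WT and 11, 12 and 16 in SLK-KO. Only 1 to 4 of them were left per WT library and 1 to 3 per SLK-KO library at equal length. YARS1, the tyrosyl enzyme, ranked 27 and 41 in WT replicates 1 and 3 and 184, 139 and 106 in SLK-KO. EEF1E1, KARS1 and LARS1 were knockout-only. Mitochondrial ribosomal protein genes counted 4, 3 and 1 of 83 in WT and 11, 14 and 10 in SLK-KO, and at equal length 3, 3 and 1 against 3, 2 and 6, and none of them was in all 6 libraries. MRPL24 and MRPL3 were in WT replicates 1 and 2 and all SLK-KO libraries.

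Mitochondrial protein import genes, whose products bring proteins through both mitochondrial membranes and fold them, went with all summits from at most 1 gene per WT library to 11 or 12 per SLK-KO library. Of 41 genes, 1, 0 and 0 were MYC genes in WT and 12, 11 and 12 in SLK-KO (0.813% ± 1.41 against 28.5% ± 1.41, SD, n = 3 each). TIMM9, TIMM44, HSPA9, TIMM23B and a readthrough of TIMM23B were knockout-only. In SLK-KO, TIMM9 ranked 212, 472 and 975, TIMM44 666, 484 and 419 and HSPA9, the mitochondrial HSP70, 547, 1071 and 239. None of these ranks is within 201, and at equal length the list counted 0, 0 and 0 genes in WT and 0, 1 and 0 in SLK-KO. TIMM23B is a near-identical copy of TIMM23, so its summit is uncertain.

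Nucleotide and one-carbon synthesis genes stood high in both genotypes. Of 44 genes, 12, 4 and 7 were MYC genes in WT and 14, 16 and 10 in SLK-KO, with overlapping ranges, and at equal length 6, 4 and 7 against 8, 8 and 4. NME1, NME2, PAICS and PPAT were in all 6 libraries. PAICS and PPAT, which catalyse steps of purine synthesis, share 1 promoter and its summit, at ranks 22, 44 and 62 in WT and 25, 42 and 23 in SLK-KO.

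Splicing factor genes counted 14, 9 and 10 of 94 in WT and 18, 26 and 20 in SLK-KO, and at equal length 10, 9 and 9 against 9, 9 and 9. SRSF6, SRSF7, SNRPD1 and the hnRNP genes HNRNPA1, HNRNPA2B1, HNRNPF and HNRNPU were in all 6 libraries. Nuclear transport genes counted 6, 5 and 4 of 62 in WT and 16, 16 and 11 in SLK-KO. At equal length they went the other way on average, with 2, 5 and 4 against 3, 2 and 3 and overlapping ranges. RAN, the GTPase that drives this transport, was in all 6, at ranks 90, 55 and 103 in WT and 54, 155 and 128 in SLK-KO. Cytosolic chaperone genes counted 3, 3 and 5 of 42 in WT and 12, 11 and 6 in SLK-KO, with PPIA, cyclophilin A, in all 6 libraries. The equal-length counts were 2, 3 and 2 against 3, 2 and 2, a mean of 5.56% in both.

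The MYC and MAX network was the 1 list whose SLK-KO shares lay wholly above those of WT at both lengths. Of 26 genes, 0, 1 and 2 were MYC genes in WT and 5, 5 and 5 in SLK-KO, and at equal length 0, 1 and 1 against 2, 2 and 2. The equal-length count rested on 2 genes, MYC itself and MXD3, a MAX dimer partner that opposes MYC. MXD3 ranked 60 and 88 in WT replicates 2 and 3 and 118, 100 and 192 in SLK-KO. The all-summits difference of 15.4 percentage points was 10.3 with a 500 bp window, 11.5 with a score of at least 5 and 3.85 with 1 TSS per gene. At equal length the difference of 5.13 points was 1.28 with a 500 bp window, with 1 TSS per gene or with the 100 best summits. RUVBL1, an ATPase of MYC-associated complexes, was knockout-only at ranks 576, 1127 and 581.

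Histone modifiers and chromatin remodelers were the 1 list whose WT shares lay wholly above those of SLK-KO at equal length. By the mean share alone, WT was higher in 10 of the 23 lists there. All summits gave 7, 6 and 7 of 113 genes in WT and 18, 21 and 17 in SLK-KO, while the 201 best gave 7, 6 and 7 against 4, 4 and 4. The difference of -2.36 percentage points was 0 with the 100 best summits. BRWD1 and SMARCC1, a core subunit of SWI/SNF remodelers, held high ranks in all 6, SMARCC1 at 69, 104 and 81 in WT and 53, 30 and 82 in SLK-KO. PRMT1, the main asymmetric arginine methyltransferase, ranked 87, 112 and 131 against 329, 154 and 118. PBRM1 and PRMT3, described above, were in the 201 best of the WT lists only, and KMT2D in those of the SLK-KO lists only. CHD1, CHD2, KDM1A and KMT2D were knockout-only with all summits.

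Cell cycle and replication genes were a small part of the lists, with 4, 2 and 2 of 90 in WT and 9, 11 and 8 in SLK-KO, and at equal length 1, 2 and 2 against 1, 1 and 2. MCM7, a subunit of the replicative helicase, was the 1 member in all 6 libraries, at ranks 47, 20 and 20 in WT and 30, 36 and 60 in SLK-KO. CDK4 and POLD2 were knockout-only. In glycolysis and the citrate cycle, 3, 2 and 1 of 43 genes were MYC genes in WT and 6, 7 and 4 in SLK-KO, and at equal length 1, 2 and 1 against 1, 1 and 1. Enolase 1 (ENO1) ranked 30 and 36 in WT replicates 1 and 2 and 17, 19 and 21 in SLK-KO. Sterol and fatty acid synthesis genes, FASN among them, counted 3, 1 and 0 of 37 in WT and 5, 4 and 4 in SLK-KO, and at equal length 2, 1 and 0 against 2, 1 and 1.

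Respiratory chain and zinc finger genes had shares close to those of all coding genes and below those of genes with POL2 (2.80% and 10.8%). POL2 was found at 68 of the 89 and 355 of the 515 genes. Respiratory chain genes counted 2, 1 and 1 of 89 in WT and 5, 4 and 5 in SLK-KO (1.50% and 5.24% on average), and at equal length 2, 1 and 1 against 1, 1 and 1, with NDUFV3 in all 6 libraries. Zinc finger genes of the ZNF family counted 9, 7 and 5 of 515 in WT and 34, 30 and 24 in SLK-KO (1.36% and 5.70% on average, against 1.42% and 5.51% of all coding genes), and at equal length 6, 7 and 5 against 6, 4 and 4. Proteasome genes counted 1, 1 and 1 of 39 in WT and 2, 1 and 3 in SLK-KO, PSMD9 being the 1 member in all 6 and the 1 member in any list of equal length. Lysosomal genes counted 1, 1 and 2 of 65 in WT and 2, 4 and 3 in SLK-KO, and 0, 1 and 2 against 0, 1 and 1 at equal length. Circadian clock genes counted 1, 0 and 2 of 23 in WT and 3, 1 and 2 in SLK-KO, with overlapping ranges. Their means of 4.35% and 8.70% rest on too few genes to place the list against the background. The shares of genes with POL2 were 2.80% and 10.8%. At equal length 1 clock gene was left, in WT replicate 3. Histone genes were below the share of all coding genes, with 0, 0 and 0 of 87 in WT and 1, 0 and 1 in SLK-KO (0.766% on average), and none at equal length. None of the 416 olfactory receptor genes, silent in most tissues, had a MYC summit in any library.

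Focal adhesion and actin genes had 0, 0 and 0 of 71 members in WT and 4, 6 and 4 in SLK-KO. Their mean SLK-KO share of 6.57% was close to the 5.51% of all coding genes and below the 10.8% of genes with POL2. POL2 was found at 62 of the 71. ILK, the integrin-linked kinase gene, was the 1 member in 3 SLK-KO libraries, at ranks 462, 831 and 558. At equal length all 6 libraries had none.

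POL2 summits, from separate libraries with an antibody to RNA polymerase II, were the readout independent of the MYC lists. Of the MYC genes of a library, 97.5%, 98.6% and 97.8% in WT and 97.2%, 97.1% and 97.7% in SLK-KO had a POL2 summit in at least 2 of the 6 POL2 libraries, against 49.6% of all coding genes. The means were 97.98% ± 0.521 and 97.3% ± 0.353 (SD, n = 3 each), with overlapping ranges (exact permutation p = 0.2, adjusted 0.4). In lists of equal length they were 98.3% ± 0.244 and 98.01% ± 0.501 (SD, n = 3 each; exact permutation p = 0.4, adjusted 0.667).

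Most genes with MYC summits in SLK-KO alone also had POL2 in WT. Of the 175 knockout-only genes, 150 (85.7%) had a POL2 summit in at least 2 WT and 169 (96.6%) in at least 2 SLK-KO POL2 libraries. For the 99 genes in all 6 MYC libraries the numbers were 93 (93.9%) and 97 (97.98%). The WT POL2 lists were shorter on the whole, with 35.3% of all coding genes in at least 2 WT lists and 47.3% in at least 2 SLK-KO lists.

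Of the classes of genes compared, those in all 6 libraries had the E-box most often. CACGTG lay within 100 bp of the best summit at 52 of the 99 genes in all 6 libraries (52.5%). It did so at 46 of the 175 knockout-only genes (26.3%), at 97 of 366 in 2 SLK-KO and 0 WT (26.5%) and at 183 of 876 in 1 SLK-KO and 0 WT (20.9%). The 48 genes in 1 or 2 WT and 0 SLK-KO libraries had it at 14 (29.2%). All of these shares were above the 5.88% of annotated gene starts. The median of the genes' median ranks was 73.5, 514, 736.5, 864.5 and 255.5 in the same order. In lists of equal length, 47.0%, 44.3% and 48.2% of WT and 48.1%, 44.5% and 44.7% of SLK-KO promoter summits had the E-box, with overlapping ranges.

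**Figure D4:**
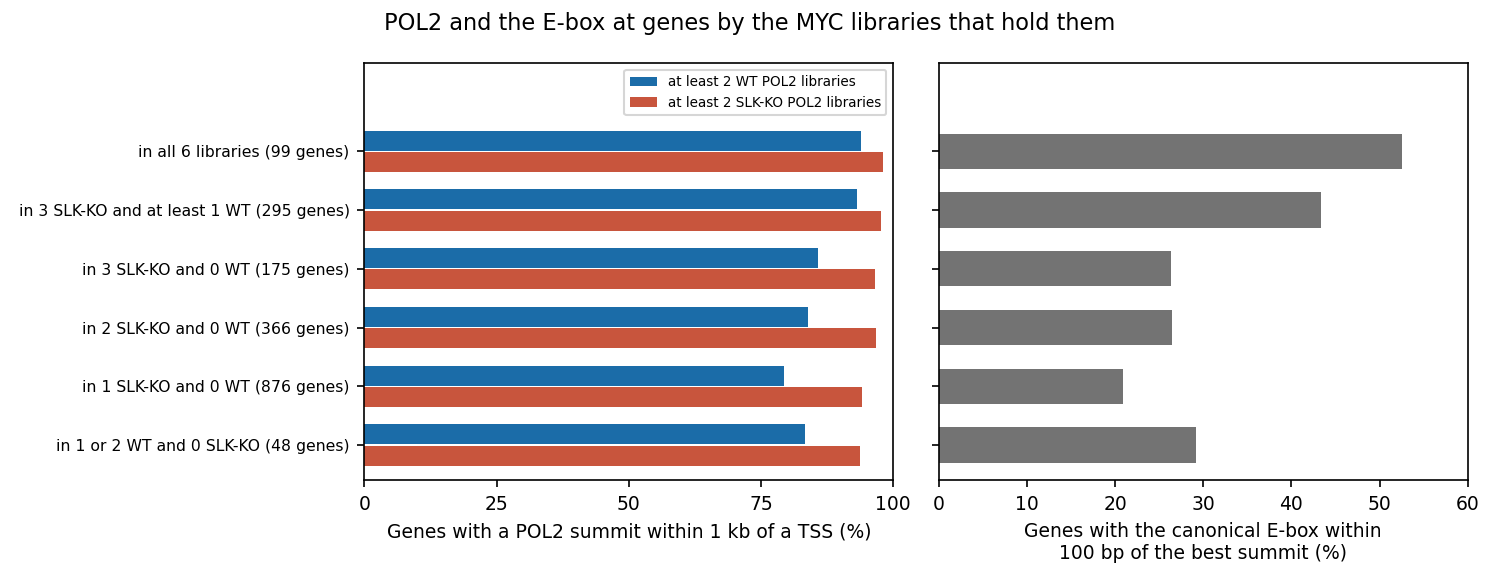
Left, share of genes (horizontal axis, percent) with POL2 near a TSS in at least 2 WT (blue) or at least 2 SLK-KO (red) POL2 libraries, and right, share with the canonical E-box within 100 bp of the best MYC summit, for genes grouped by the MYC libraries that hold them (rows). POL2 shares run from 79.3% to 97.98%, while the E-box share is 52.5% for genes in all 6 libraries and 20.9% for those in 1 SLK-KO library.

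Promoter summits lay close to the TSS in both genotypes. The median distance was 96, 75 and 95 bp in WT and 89, 96 and 100 bp in SLK-KO (88.7 ± 11.8 and 95.0 ± 5.57 bp, SD, n = 3 each; exact permutation p = 0.6, adjusted 0.667). In lists of equal length it was 80.7 ± 5.01 and 81.0 ± 15.6 bp (SD, n = 3 each; exact permutation p = 1, adjusted 1). Within 250 bp of a TSS lay 75.4% to 81.2% of WT and 76.3% to 78.1% of SLK-KO promoter summits.

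**Figure D5:**
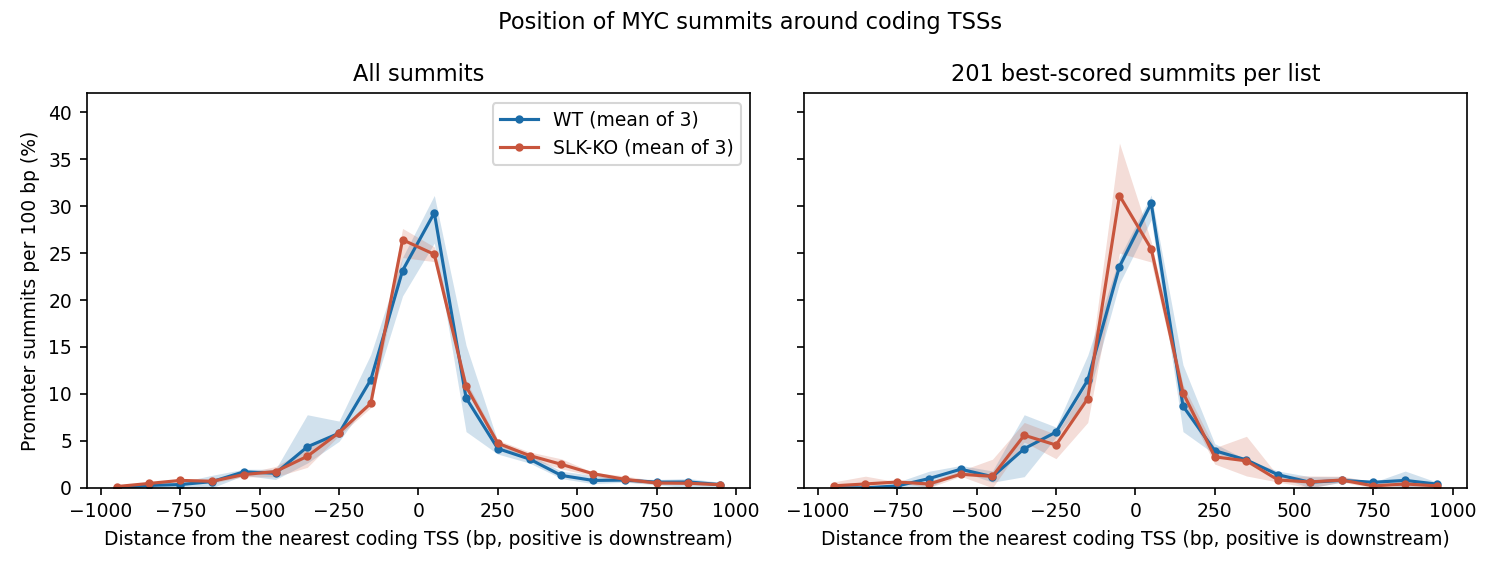
Share of promoter summits per 100 bp (vertical axis, percent) against distance from the nearest coding TSS (horizontal axis, bp), as the mean of 3 libraries with a band from the lowest to the highest, for WT (blue) and SLK-KO (red). Both genotypes peak within 100 bp of the TSS, where with all summits the 100 bp upstream hold 23.1% in WT and 26.4% in SLK-KO and the 100 bp downstream 29.3% and 24.9%.

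Other features of the promoter summits were compared as well. The CpG ratio, the observed over the expected number of CG pairs within 250 bp, is high in CpG islands. Its median was 0.872, 0.850 and 0.851 in WT and 0.847, 0.852 and 0.852 in SLK-KO with all summits (exact permutation p = 0.6, adjusted 0.667, n = 3 each). At equal length it was 0.863, 0.850 and 0.852 in WT and 0.873, 0.866 and 0.868 in SLK-KO, with no overlap (a difference of 0.0140; exact permutation p = 0.1, adjusted 0.25, n = 3 each). That difference was 0.00577 with CpG over 100 bp and 0.00868 with a 500 bp TSS window (exact permutation p = 0.4 for each). With 1 TSS per gene it was 0.0129, with a 2 kb window 0.0160 and with the 100 best summits 0.0369. Summits that lay within 1 kb of TSSs of 2 or more coding genes, as at shared promoters, were 22.5% ± 1.24 of the promoter summits in WT against 19.8% ± 0.389 in SLK-KO (SD, n = 3 each). Those ranges did not overlap (exact permutation p = 0.1, adjusted 0.25). With 201 summits per list they did, at 24.5% ± 1.56 and 23.6% ± 2.096 (SD, n = 3 each; exact permutation p = 0.6, adjusted 0.667). The all-summits difference of -2.67 points was -0.623 with a 500 bp window and -1.45 with 1 TSS per gene. It was -3.26 with a 2 kb window and -4.15 with a score of at least 5. None of the 10 tests could reach a p of 0.05.

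The cell line label was checked with POL2 summits at marker genes. KRT8, KRT18, CD44 and TMPRSS2 had one in all 6 POL2 libraries, and EPCAM in 1 of WT and 3 of SLK-KO. CDH1 had one in 1 WT library and in none of SLK-KO. KLK3 and KLK2, kallikrein genes of prostate luminal cells whose expression PC-3 largely lacks, had none. A gene without a summit is not shown to be unbound, since a list holds only peaks past the caller's threshold.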

How the data were processed

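The series measured MYC and RNA polymerase II (POL2) binding by ChIP-seq in PC-3 cells of both genotypes. Per the series' design text and the submitters' processing notes, the authors ran nf-core/chipseq 2.1.0 on GRCh38.p14, with Trim Galore 0.6.7, BWA 0.7.18-r1243, Picard 3.2.0 and MACS3 3.0.1 among the tools. Column 5 of the deposited summit lists is the −log10 q of each peak, read from its values, the lowest of which stand at or above that of q = 0.05. The control library and the caller's options are not given in the sources used here. The 6 IgG and 2 Input libraries were not analysed here. Read depth is unknown, and the number of replicates limits the precision.

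Each list was taken as deposited, 1 list per library with no pooling. Each summit was assigned to protein-coding genes with any annotated TSS within 1 kb (GENCODE release 44, 20033 genes on chromosomes 1 to 22, X and Y). Over all 12 lists 53 summits lay on sequences without annotation and were assigned to none. A gene's rank is that of its best-scored summit. Gene counts were tested on the log2 scale. Differences were tested by exact permutation over libraries (20 relabellings) with Benjamini-Hochberg adjustment over 10 tests. The assignment and the counts were tested on simulated lists.

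Replicate numbers did not pair the libraries, and the samples share only a number. The summits and gene lists were chosen with earlier results of these data known. Named genes were up to 12 with the best median rank in all 6 libraries, up to 12 in each genotype alone, up to 10 each way at equal length, up to 4 per gene list, SLK and MYC. Members of gene lists in all 6 or in 3 SLK-KO and 0 WT libraries were named besides, after their values were seen, and some genes are not reported here. The tools were Python 3.11.15 with numpy 2.4.6, matplotlib 3.10.9 and pysam 0.24.0, and samtools 1.23.1.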

Additional observations from a re-analysis of the deposited data

How the results depend on the processing

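The alternatives were other TSS windows (500 bp and 2 kb), 1 TSS per gene, a score of at least 5, the 100 best summits, POL2 in 1 library, CpG over 100 bp, 3 of 3 libraries, leaving out each library, and a replicate block. Of 114 alternatives to tests 101 kept their direction and 13 reversed, and since no test can reach 0.05, this says nothing about stability. SLK-KO minus WT reversed with the 100 best summits for genes per library (0.0317 on the log2 scale), POL2 share (1.27 points), distance (-3.67 bp) and shared promoters (1.48 points), all at equal length. It also reversed for the POL2 share with POL2 in 1 library (0.266 points), for distance at equal length with 2 kb (-3.67 bp) and with 1 TSS per gene (-10.5 bp, and -7.5 bp with all summits), and for shared promoters with 500 bp (0.925 points). The causes were not tested. Leaving out a library gave -0.5 to 10 bp for distance with all summits and -8.42 to 6.58 bp at equal length, and -1.85 to 0.210 points for shared promoters at equal length.

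Of 106 alternatives to gene counts 72 stayed within 1.5 times and 34 did not. Requiring 3 of 3 libraries left 105 WT, 470 SLK-KO and 99 shared genes with all summits and 87, 94 and 55 at equal length. A score of at least 5 left 598 genes in 2 SLK-KO libraries and 98 in 3 SLK-KO and 0 WT. The 100 best summits left 87 WT, 100 SLK-KO, 63 shared, 4 SLK-KO-only and 2 WT-only genes. Leaving out a library gave, with all summits, 129 to 230 WT, 568 to 953 SLK-KO, 127 to 210 shared, 196 to 358 SLK-KO-only and 0 to 1 WT-only genes. At equal length it gave 114 to 181, 112 to 178, 85 to 101, 8 to 17 and 8 to 15 in the same order.

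Of the 23 function lists 22 differed between the genotypes' means with all summits, and 218 of 220 alternatives kept the sign. At equal length 16 differed, and 138 of 160 did. Same-numbered libraries correlated at 0.0223, 0.0520 and -0.0193 in their deviations over genes, so the replicate block was not used. Under it, exact sign flips give p = 0.25 at the least, which was the value for MYC genes per library (log2 difference 1.98), so no test could pass 0.05 with or without it. Scores without read depth do not compare between lists.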

Other observations

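After the values of POLR1B and PSD4 were seen, the share of each chromosome in the MYC genes was looked up. Chromosome 2 holds 1247 of the 20033 coding genes (6.22%). It held 15, 13 and 11 MYC genes in WT and 7, 4 and 6 in SLK-KO with 201 summits per list, and 7.38%, 6.25% and 7.17% against 4.10%, 3.68% and 4.61% of the MYC genes with all summits. Of the 25 chromosome 2 genes in at least 1 list of equal length, 15 were in WT lists only, 2 in SLK-KO lists only and 8 in both. ODC1, the first enzyme of polyamine synthesis, and SMYD5 were each in 2 WT and 0 SLK-KO lists. Between 112211529 and 113209396 lay 5 of those 15 genes in WT lists only. POLR1B was in 3 WT lists, PSD4 in 2, and ZC3H8, ZC3H6 and SLC20A1 in 1 each. PCBP1 was in all 6 lists.

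The POL2 lists, which come from other libraries of the same lines, showed a like split. With the 5047 best-scored summits of each POL2 list, chromosome 2 held 7.15%, 7.64% and 7.34% of the POL2 genes in WT and 4.73%, 4.79% and 4.89% in SLK-KO. Among 24 chromosomes the genotypes' ranges of shares were apart for 14 in the POL2 lists. In the MYC lists of equal length they were apart for 5 (2, 13, 15, 20 and X). In gene counts only chromosome 2 of these 5 was apart, and the other ranges touched. Chromosome 13 counted 2, 0 and 2 MYC genes in WT and 2, 3 and 3 in SLK-KO. The counts were 2, 2 and 2 against 2, 4 and 6 on chromosome 15. They were 8, 10 and 8 against 10, 10 and 10 on chromosome 20, and 1, 2 and 2 against 2, 4 and 5 on X. Chromosomes 13, 15 and X held larger shares in SLK-KO for both antibodies, chromosome 15 with 2.28% to 2.53% of POL2 genes in WT and 3.89% to 3.95% in SLK-KO. Chromosome 20 did so in the MYC lists alone. These splits were not tested, and what sets them was not examined.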
